A study of Mus musculus with 20 samples.

Results

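The genes described here are 10 genes of polyamine and arginine metabolism, Arg1, Arg2, Odc1, Azin1, Oaz1, Amd1, Srm, Sms, Sat1 and Smox. They were found by their symbols in a table of RNA-seq counts for 22090 gene symbols, and all 10 were present and passed the filter on low counts in every comparison. A further 59 genes of the same pathways were listed beside them for context. Arginase splits arginine into urea and ornithine, and ornithine decarboxylase turns ornithine into putrescine, the first polyamine. Putrescine is then lengthened to spermidine and spermine with aminopropyl groups taken from decarboxylated S-adenosylmethionine, and cells hold polyamine levels in check through antizyme, acetylation and oxidation. In skin, ornithine decarboxylase is long known as an enzyme induced by ultraviolet light and tumor promoters.

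The samples were 8 normal skin (NS), 8 actinic keratosis (AK, a precancerous lesion) and 4 cutaneous squamous cell carcinoma (cSCC) tissues from the skin of female SKH-1 mice, a hairless strain, whose age of 7 months in the labels is, by the methods, that before irradiation began. By the methods, 4 mice were irradiated with a solar simulator giving UVA and UVB and 4 were not, and tissues were taken only after the whole course of irradiation. Each irradiated mouse gave normal skin, AK of 2 grades and a cSCC, so the 8 AK came from 4 mice. The labels tie no tissue to a mouse, a grade of AK or, for NS, to irradiation, so NS and AK were each treated as 1 group and all tissues as unpaired. Tissues of a group that share a mouse could make the p-values too small. Tissues of compared groups that share a mouse could make them too large. Irradiation and lesion type cannot be told apart in these groups. In bulk tissue, fewer cells of a type and less RNA per cell cannot be told apart either.

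Total counts ran from 1624325 to 6295575 in NS, from 867219 to 14055206 in AK and from 775750 to 7095102 in cSCC. A count of 3 corresponds to between 0.2245 and 3.784 CPM (each count divided by its library's TMM-scaled total, in parts per 1e6), and these floors cover counting error only. Basal keratinocyte markers were present in every library, with summed levels of 3795 to 18030 CPM. Some libraries nevertheless stood apart. Library cSCC 21 held 39800 CPM of 7 heart muscle genes, against at most 60.54 CPM in any NS or AK, and only 686.7 CPM of 5 suprabasal keratinocyte genes. Library cSCC 20 held 35810 CPM of 6 lung epithelium genes, against at most 51.71 CPM in any NS or AK. Library NS 7 held 86.29 CPM of 5 hepatocyte genes, where no other library exceeded 2.435 CPM. Library cSCC 18 had a TMM factor of 0.5086, while those of the others lay between 0.8522 and 1.216. Its CPM are therefore higher than by library size alone, and where it lies above NS or AK, that can depend on this factor. For the DEGs described in carcinoma comparisons, values without cSCC 20 and cSCC 21 together are given below.

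The stretches of genome before the start sites of 4 genes that passed the test in at least 1 comparison are shown first, as context for genes that moved in different directions. They were taken from RefSeq (GRCm38.p6) and each holds the 250 bases upstream of the RefSeq start, written 5′ to 3′ on the gene's strand. For Odc1 that start lies downstream of the start in the GENCODE annotation (17544794), so the end of the Odc1 window, with its last GC box, lies inside the gene as GENCODE gives it. Of the 10 genes, 6 had a window and Arg1, Arg2, Azin1 and Srm are named only. Capitals mark matches, on either strand, to 4 motifs: the GC box GGGCGG, the E-box CACGTG bound by Myc, the TATA box TATAAA and the CCAAT box CCAAT.
Odc1 upstream window, chr12:17544623-17544872 (+): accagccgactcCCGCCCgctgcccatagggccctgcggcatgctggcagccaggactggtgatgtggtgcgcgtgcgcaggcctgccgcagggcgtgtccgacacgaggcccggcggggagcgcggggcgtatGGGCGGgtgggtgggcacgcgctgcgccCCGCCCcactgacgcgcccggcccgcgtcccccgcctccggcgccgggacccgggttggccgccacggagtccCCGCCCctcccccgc
Oaz1 upstream window, chr10:80826406-80826655 (+): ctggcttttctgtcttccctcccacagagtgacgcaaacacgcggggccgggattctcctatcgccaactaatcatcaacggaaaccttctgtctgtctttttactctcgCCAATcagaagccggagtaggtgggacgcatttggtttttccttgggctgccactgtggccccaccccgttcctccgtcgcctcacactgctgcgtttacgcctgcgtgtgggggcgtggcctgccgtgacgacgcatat
Sat1 upstream window, chrX:155216450-155216699 (-): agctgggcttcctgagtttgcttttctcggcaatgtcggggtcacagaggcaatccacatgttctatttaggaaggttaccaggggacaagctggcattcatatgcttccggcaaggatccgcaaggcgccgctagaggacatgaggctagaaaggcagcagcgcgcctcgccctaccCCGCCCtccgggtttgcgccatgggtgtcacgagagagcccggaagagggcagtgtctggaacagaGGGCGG
Amd1 upstream window, chr10:40302189-40302438 (-): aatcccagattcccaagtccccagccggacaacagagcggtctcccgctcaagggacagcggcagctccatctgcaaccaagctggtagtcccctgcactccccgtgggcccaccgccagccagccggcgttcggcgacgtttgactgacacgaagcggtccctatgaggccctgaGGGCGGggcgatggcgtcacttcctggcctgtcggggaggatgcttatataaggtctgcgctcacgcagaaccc
The Odc1 window had 4 GC boxes, the Sat1 window 2 and the Amd1 window 1, and the Oaz1 window had none but held 1 CCAAT box. No motif overlapped another in these 4 windows. The exact letters CACGTG and TATAAA were absent from all 4 of them. Variants of the motifs, such as the letters tatataag near the end of the Amd1 window, were not searched. Over 32851 windows of the same length, 32.7% held a GC box, 6.02% an E-box, 12.4% a TATA box and 33.8% a CCAAT box. Oaz1 RNA also carries the frameshift site through which polyamines set antizyme production. The letters TCCTGAT, at which the ribosome can slip forward by a base past the stop codon TGA, are in capitals in this stretch of GENCODE transcripts on GRCm38.
Oaz1 frameshift stretch, chr10:80828281-80828309 (+): ctcggtggtgcTCCTGATgtccctcaccc
No coding sequence was given for the transcripts that held this stretch, so the frame of the TGA was not checked. Counts of RNA do not show how often that frameshift was made.

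A differentially expressed gene (DEG) was called by edgeR's quasi-likelihood test where its p-value, adjusted over all genes tested by the Benjamini-Hochberg procedure, was under 0.05 and its fold change above 1.5 or below 0.67. In AK vs. NS, 1 of the 10 genes was a DEG, Sat1, which rose, beside a background in which 2.26% of 11677 genes rose and 2.38% fell (4.64% in either direction). In cSCC vs. NS, 4 of the 10 rose, Arg1, Arg2, Odc1 and Oaz1, and 0 fell, while 11.7% of 12097 genes rose and 7.65% fell (19.3% in either direction). None of the 10 had a lower level at an unadjusted edgeR p under 0.05 there (1 did by DESeq2 and 1 by limma voom), and neither of these tools gave a lower DEG. In cSCC vs. AK, the same 4 genes rose and Amd1 fell, where 16% of 12032 genes rose and 8.34% fell (24.4% in either direction). The 10 genes had a median log2 fold change of 0.22 in AK vs. NS, 0.79 in cSCC vs. NS and 0.69 in cSCC vs. AK, while the medians of all genes tested were -0.04, 0.14 and 0.17. In no comparison did any of the 10 genes separate the groups completely. Across all genes, complete separation upward occurred in 0.394%, 2.70% and 3.33% of genes and downward in 0.128%, 5.73% and 6.84%, in the same order of comparisons.

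**Figure D1:**
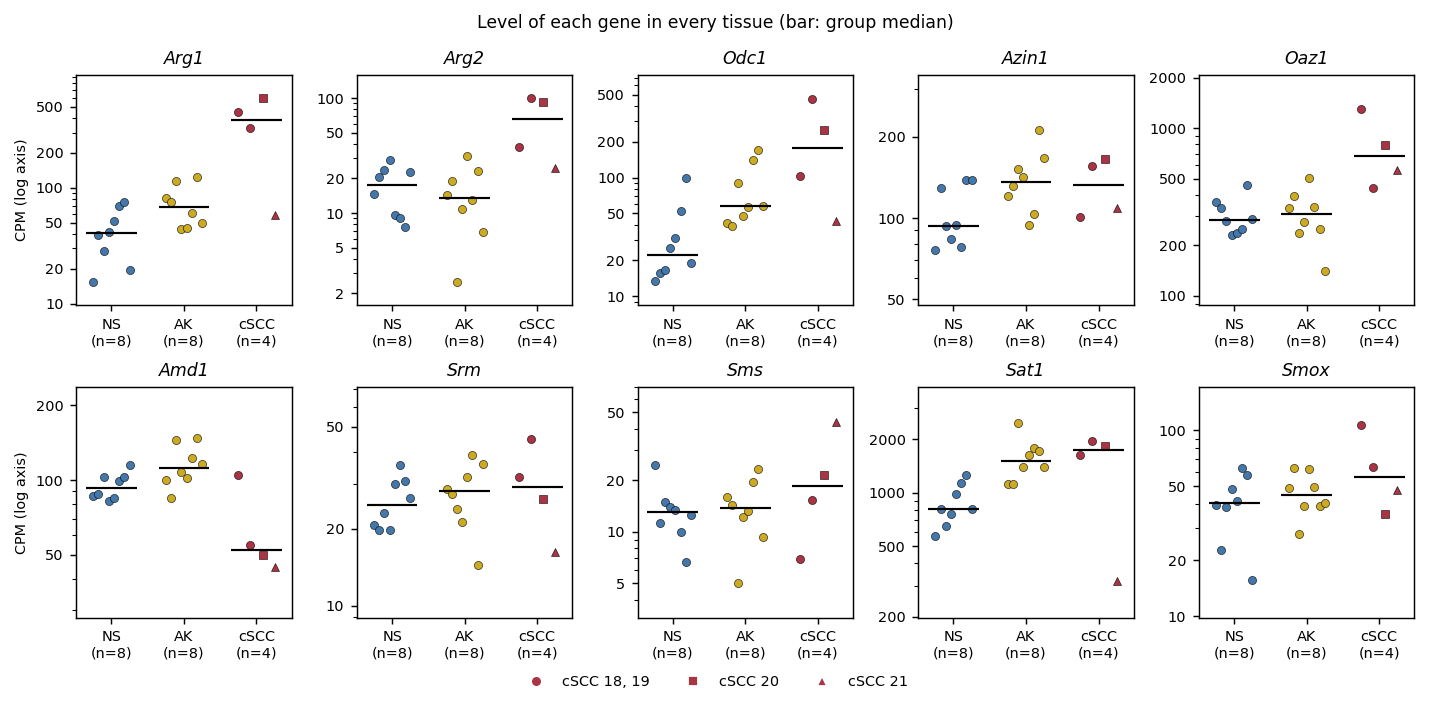
Level of each of the 10 genes in every tissue, in CPM on log axes, for NS (n = 8), AK (n = 8) and cSCC (n = 4), with bars at the group medians. Library cSCC 21 (triangle) was the lowest cSCC for Arg1, Arg2, Odc1, Amd1, Srm and Sat1, and the highest for Sms.

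Per kilobase of exon, the scale on which genes can be ranked, Sat1 had the highest mean level in every group, with 313.8 CPM per kb in NS, 567.1 in AK and 516.5 in cSCC. Oaz1 followed in NS and AK with 119.3 and 120.6 CPM per kb and reached 302.7 in cSCC. Arg1 rose in rank from 19.15 CPM per kb in NS to 159.9 in cSCC. Sms was the lowest gene in each group, at 2.239, 2.353 and 3.665 CPM per kb. In NS, the levels of Amd1, Arg1, Azin1, Srm, Arg2, Smox and Odc1 lay close together, between 10.03 and 26.81 CPM per kb, and neighbours in that order were not tested against each other. By their mean levels per kilobase, antizyme and acetyltransferase transcripts thus stood above those of the synthetic enzymes in NS and in AK. The same held in cSCC, where Odc1 averaged 63.45, Srm 18.63 and Amd1 17.98 CPM per kb.

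The arginases, which supply ornithine, were examined first. Arg1, the cytosolic arginase best known from liver and from alternatively activated macrophages, lies at chr10:24915221-24927484 on the minus strand (GRCm38). Its level ran from 15.49 through a median of 40.48 to 75.2 CPM in NS and from 44.18 through 68.02 to 124.7 CPM in AK. The 4 cSCC held 448.0, 325.2, 593.9 and 57.7 CPM in libraries 18, 19, 20 and 21. Thus 3 of the carcinomas lay above every NS and AK, and cSCC 21 lay within their range. Arg1 rose 8.68-fold in cSCC vs. NS (log2 fold change 3.12 ± 0.51 SE, edgeR adjusted p = 0.00192, n = 4 and 8). It rose 5.11-fold in cSCC vs. AK (log2 fold change 2.35 ± 0.44, edgeR adjusted p = 0.00329). In AK vs. NS the log2 difference was 0.78 ± 0.31 and did not pass (edgeR adjusted p = 0.133, 95% interval 0.17 to 1.39). Both carcinoma calls held in every alternative tried, and without cSCC 20 and cSCC 21 the log2 fold changes were 3.20 and 2.45 (edgeR adjusted p = 0.00152 and 0.00136). The 5 hepatocyte markers summed to at most 1.138 CPM in any cSCC. Among NS, NS 7 held 86.29 CPM of them and 70.02 CPM of Arg1, and NS 8 held 2.435 CPM of them and 75.2 CPM of Arg1. The sums of the 7 macrophage markers overlapped, with 188.3 to 814.6 CPM in NS, 246.4 to 889.6 in AK and 236.2 to 1099 in cSCC. Of that list, C1qa held 40.98 to 193.3 CPM in cSCC, at most 27.74 in AK and at most 92.99 in NS. C1qb and Emr1 (Adgre1) overlapped NS and AK, with 22.92 to 212.7 and 4.862 to 39.82 CPM in cSCC. The neutrophil sums had medians of 34.36 CPM in NS, 169.5 in AK and 449.7 in cSCC. In carcinomas 18 to 21 these sums were 196.6, 413.5, 485.8 and 691.8 CPM. The highest sum of all, 806.4 CPM, was in NS 9, which held 19.36 CPM of Arg1. The part of these cells in the Arg1 level was not tested.

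Arg2, the mitochondrial arginase, lies at chr12:79130777-79156301 on the plus strand and overlaps Vti1b on the opposite strand. Whether counting used strand is not stated, so its counts are uncertain to that extent. Arg2 ranged from 7.611 through 17.68 to 28.8 CPM in NS and from 2.522 through 13.62 to 31.06 CPM in AK, where the lowest value was 2 counts. The cSCC held 37.5, 100.2, 93.3 and 24.5 CPM in the order of libraries 18 to 21. As for Arg1, cSCC 21 lay within the other groups while the remaining 3 carcinomas exceeded them. That Arg2 in cSCC 18 exceeded them depends on the TMM factor of 0.5086 of that library. Arg2 rose 3.85-fold in cSCC vs. NS (log2 fold change 1.94 ± 0.43, edgeR adjusted p = 0.00814) and 4.45-fold in cSCC vs. AK (2.16 ± 0.48, edgeR adjusted p = 0.00744). Its difference in AK vs. NS was -0.18 ± 0.37 (edgeR adjusted p = 0.793). All alternatives kept both carcinoma calls, with 2.04 and 2.25 (edgeR adjusted p = 0.0157 and 0.0138) without cSCC 20 and cSCC 21.

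Odc1 encodes ornithine decarboxylase, the rate-limiting enzyme of polyamine synthesis, and lies at chr12:17544794-17551505 on the plus strand. It ranged from 13.38 through a median of 22.18 to 100.2 CPM in NS and from 39.45 through 57.26 to 172.6 CPM in AK. The carcinomas held 104.2, 463.6, 253.7 and 42.7 CPM in libraries 18 to 21. The groups overlapped, since NS 8 stood with the higher AK and cSCC 21 with the lower AK, but 6 of 8 NS were below every AK. Odc1 rose 6.57-fold in cSCC vs. NS (log2 fold change 2.72 ± 0.60, edgeR adjusted p = 0.00814), and that call held in every alternative, although without cSCC 19, the carcinoma with most Odc1, the log2 fold change was 2.02. In cSCC vs. AK it rose 2.87-fold (1.52 ± 0.53, edgeR adjusted p = 0.0485). That call was close to the threshold and was kept in only 4 of 12 fits that left out a library, where the adjusted p ran from 0.0182 to 0.283, and in 4 of 7 other alternatives. Without cSCC 19 the log2 fold change against AK was 0.81. Without both cSCC 20 and cSCC 21 the Odc1 differences were 3.09 from NS and 1.91 from AK (edgeR adjusted p = 0.00948 and 0.033). In AK vs. NS the log2 difference of 1.23 ± 0.42 did not pass (edgeR adjusted p = 0.0868, 95% interval 0.40 to 2.06). It was a DEG by DESeq2 (adjusted p = 0.0308) and by limma voom (adjusted p = 0.0324). It also passed without NS 8 (edgeR adjusted p = 0.0156), in which the stressed keratinocyte genes Krt6a, Krt6b, Krt16 and Krt17 summed to 14980 CPM, the highest of the NS.

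**Figure D2:**
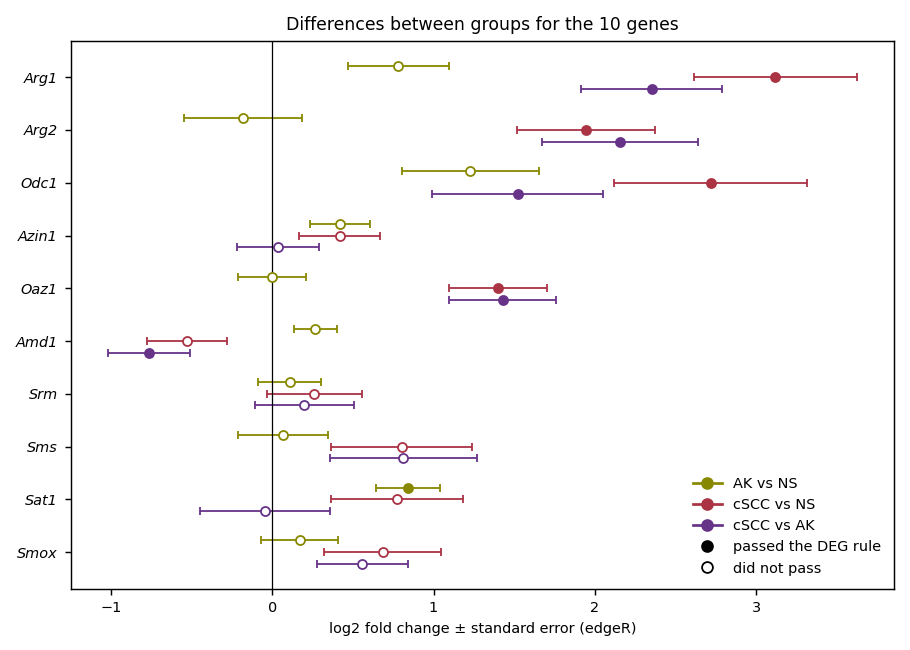
Log2 fold change of each of the 10 genes in each of the 3 comparisons, with standard errors from edgeR. Filled points passed the DEG rule. Arg1, with 3.12 in cSCC vs. NS, had the largest change, and Amd1 was the only DEG below 0.

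The regulators of ornithine decarboxylase behaved differently from each other. Oaz1 encodes antizyme 1, which binds ornithine decarboxylase and sends it to the proteasome, and lies at chr10:80826656-80829290 on the plus strand. Its level was 232 to 457.9 CPM in NS (median 283.1) and 140.6 to 501.2 CPM in AK (median 305.6). The carcinomas held 1302, 439.4, 795.3 and 560.5 CPM in libraries 18 to 21. Only cSCC 19, the carcinoma with the highest Odc1, fell within the range of NS and AK. Oaz1 rose 2.64-fold in cSCC vs. NS (log2 fold change 1.40 ± 0.31, edgeR adjusted p = 0.00795) and 2.69-fold in cSCC vs. AK (1.43 ± 0.33, edgeR adjusted p = 0.0087), in every alternative tried. Without cSCC 20 and cSCC 21 the differences were 1.53 and 1.55 (edgeR adjusted p = 0.0151 and 0.0189). The difference from NS was smaller without cSCC 18 (1.02, edgeR adjusted p = 0.0172) and by library size alone (0.96, edgeR adjusted p = 0.032). In AK vs. NS the difference was close to 0, with a 95% interval from -0.41 to 0.41 on the log2 scale. Azin1 encodes antizyme inhibitor 1, a decarboxylase relative without activity that draws antizyme away, and lies at chr15:38487427-38519266 on the minus strand. It held 76.04 to 138.1 CPM in NS, 94.09 to 212.8 CPM in AK and 101.4 to 166.1 CPM in cSCC. It passed in no comparison, with log2 differences of 0.42 ± 0.18 in AK vs. NS, 0.42 ± 0.25 in cSCC vs. NS and 0.04 ± 0.25 in cSCC vs. AK (edgeR adjusted p = 0.165, 0.261 and 0.928).

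Amd1 encodes S-adenosylmethionine decarboxylase, which makes the aminopropyl donor, and lies at chr10:40287458-40302186 on the minus strand. It was steady in NS, from 82.34 through 93.27 to 114.5 CPM, and ran from 84.33 through 111.9 to 148 CPM in AK. The carcinomas held 104.9, 54.9, 50.1 and 44.8 CPM in libraries 18 to 21, so that only cSCC 18 was within the range of the other groups. Amd1 fell in cSCC vs. AK (log2 fold change -0.76 ± 0.26, edgeR adjusted p = 0.0418), and its difference of -0.53 ± 0.25 in cSCC vs. NS did not pass (edgeR adjusted p = 0.149). The call in cSCC vs. AK was kept in 3 of 12 fits that left out a library and in 4 of 7 other alternatives. Without cSCC 20 and cSCC 21 it was lost, with a log2 difference of -0.48 (edgeR adjusted p = 0.285). The difference in cSCC vs. NS passed without cSCC 18 (edgeR adjusted p = 0.0111). It also passed by library size alone (-0.95, edgeR adjusted p = 0.0152), since the level of cSCC 18 depends on its TMM factor of 0.5086. The counts of Amd1 are uncertain, because 85.7% of all 50-base words of its copy Amd2 also occur in Amd1. Amd2 averaged 77.94 ± 12.84 CPM in NS, 88.55 ± 13.83 in AK and 53.82 ± 13.52 in cSCC (SD). Its carcinomas lay below every AK, but with a log2 difference of -0.61 ± 0.22 it missed the threshold (edgeR adjusted p = 0.0537).

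The aminopropyl transferases passed the test in no comparison. Srm, which makes spermidine from putrescine, lies at chr4:148591503-148594993 on the plus strand and held 19.7 to 35.57 CPM in NS, 14.38 to 38.82 in AK and 16.21 to 44.82 in cSCC. Its log2 differences were 0.11 ± 0.20 in AK vs. NS, 0.26 ± 0.29 in cSCC vs. NS and 0.20 ± 0.31 in cSCC vs. AK, and the smallest edgeR adjusted p was 0.567. Sms, which makes spermine from spermidine, lies at chrX:157443855-157492287 on the minus strand and held 6.698 to 24.64 CPM in NS and 5.045 to 23.37 CPM in AK. Its carcinoma values were 6.9, 15.4, 21.6 and 44.2 CPM in libraries 18 to 21. The highest Sms of all 20 tissues was that of cSCC 21, the library with heart muscle markers. The log2 difference of Sms was 0.80 ± 0.43 in cSCC vs. NS and 0.81 ± 0.45 in cSCC vs. AK (edgeR adjusted p = 0.21 and 0.201), and it was -0.22 and -0.26 without cSCC 20 and cSCC 21.

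The enzymes of polyamine breakdown were led by Sat1, the spermidine and spermine acetyltransferase that marks polyamines for export or oxidation, at chrX:155213132-155216449 on the minus strand. Sat1 ranged from 567.5 through a median of 808 to 1255 CPM in NS and from 1112 through 1511 to 2458 CPM in AK. In the carcinomas it was 1627, 1962 and 1825 CPM in libraries 18, 19 and 20 and 317.4 CPM in cSCC 21. Of the 8 AK, 6 exceeded the highest NS, and 3 of the 4 carcinomas did so too, while cSCC 21 lay below all other tissues. That cSCC 18 exceeded the highest NS depends on its TMM factor of 0.5086. Sat1 rose 1.79-fold in AK vs. NS (log2 fold change 0.84 ± 0.20, edgeR adjusted p = 0.0258) and was the only one of the 10 genes called in that edgeR fit. That call was lost without NS 4 (edgeR adjusted p = 0.0567) and when all 20 tissues were fitted together (edgeR adjusted p = 0.18), a fit in which 9 DEGs were left over all genes in AK vs. NS. In cSCC vs. NS the log2 difference of 0.77 ± 0.41 did not pass (edgeR adjusted p = 0.196), but without cSCC 21 it was 1.10 and passed (edgeR adjusted p = 0.0184). The difference in cSCC vs. AK was -0.04 ± 0.40, with a 95% interval from -0.83 to 0.75. Smox, the spermine oxidase, lies at chr2:131491496-131525922 on the plus strand and held 15.75 to 62.68 CPM in NS, 27.75 to 62.43 in AK and 35.27 to 107 in cSCC. It passed in no comparison, with log2 differences of 0.17 ± 0.24, 0.68 ± 0.36 and 0.56 ± 0.28 (edgeR adjusted p = 0.693, 0.199 and 0.163), although without cSCC 20 and cSCC 21 it passed in cSCC vs. AK (edgeR adjusted p = 0.0465).

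Ratios of a pair of genes within a tissue depend on the scaling between libraries only through the pseudocount, and 4 were compared between groups with a two-sided exact permutation test on log2(CPM + 1), adjusted over 12 tests. The ratio of Odc1 to Sat1, synthesis against acetylation, averaged -4.91 ± 0.63 in NS, -4.43 ± 0.60 in AK and -2.94 ± 0.77 in cSCC (SD, log2). The difference was 1.98 in cSCC vs. NS (exact permutation p = 0.00808, adjusted p = 0.0727) and 1.49 in cSCC vs. AK (exact permutation p = 0.0121, adjusted p = 0.0727), so neither passed after adjustment. These differences were 1.90 and 1.41 without cSCC 20 and cSCC 21, and did not pass either. Too few carcinomas were left there for the exact permutation test to pass after adjustment, so nothing is concluded from that failure. In this ratio cSCC 21, at -2.87, was beside cSCC 20, at -2.84, although both genes were low in it. The ratio of Odc1 to Oaz1 differed by 1.37 in AK vs. NS (exact permutation p = 0.0182, adjusted p = 0.0727) and by 1.19 and -0.18 in cSCC vs. NS and cSCC vs. AK. The ratio of Arg1 to Arg2 differed by 1.16, 1.05 and -0.11 and that of Sms to Srm by -0.05, 0.33 and 0.38 in the 3 comparisons, with exact permutation p-values of 0.09 or more. The smallest p these group sizes allow is 0.000155 for 8 against 8 and 0.00404 for 4 against 8.

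**Figure D3:**
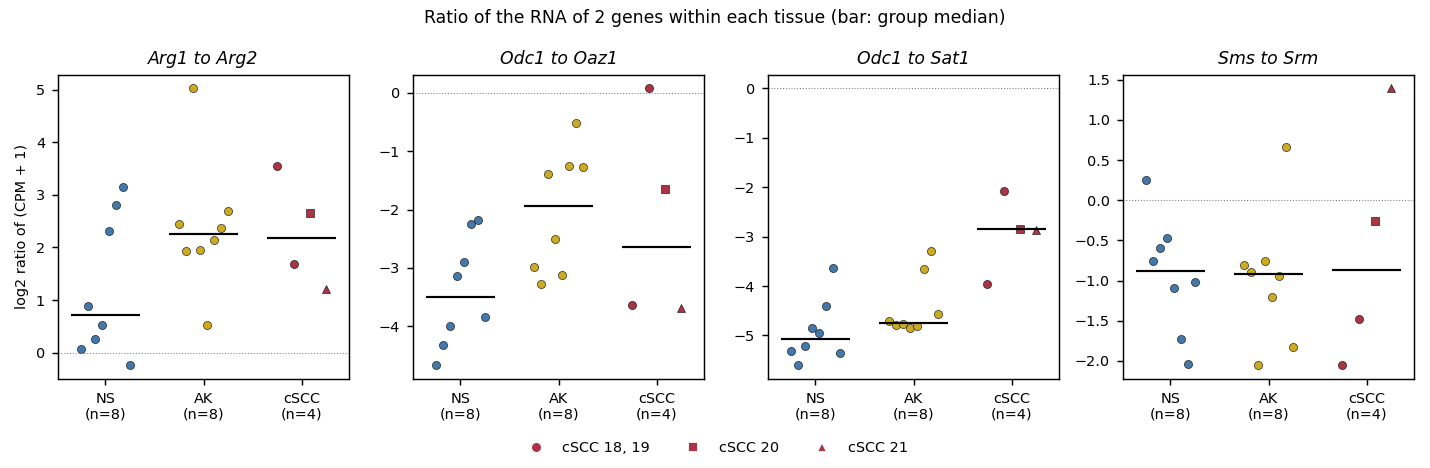
Log2 ratio of (CPM + 1) of 4 pairs of genes in every tissue of NS (n = 8), AK (n = 8) and cSCC (n = 4), with bars at the group medians. For Odc1 to Sat1 the carcinomas lie between -3.95 and -2.08, while NS and AK lie between -5.60 and -3.30.

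Within groups, Odc1 was related to the other 9 genes over the 8 NS and over the 8 AK, 18 relations adjusted together. In NS, Odc1 rose with Sat1 (Pearson r = 0.912, exact permutation p = 5.46e-04, adjusted p = 0.00983, Spearman rho = 0.881, exact permutation p = 0.00724, adjusted p = 0.0434). Without the 2 NS farthest from the median of Odc1, r was 0.792. In NS it also rose with Arg1 (r = 0.844, exact permutation p = 0.00744, adjusted p = 0.0491, rho = 0.905, exact permutation p = 0.00456, adjusted p = 0.041), with r = 0.742 without the 2 farthest. In AK, Odc1 rose with Amd1 (r = 0.84, exact permutation p = 0.00818, adjusted p = 0.0491, rho = 0.952, exact permutation p = 0.00114, adjusted p = 0.0205), with r = 0.929 without the 2 farthest. The other 15 relations did not pass for both measures, among them Odc1 with Oaz1 (r = 0.251 in NS and -0.191 in AK) and with Azin1 (r = 0.192 and 0.341). Without the 2 farthest tissues, r was -0.927 in NS and -0.384 in AK for Oaz1. For Azin1 it was -0.0752 and 0.296. The 4 NS with the lowest Odc1, NS 1, 2, 4 and 9, had between 1996 and 2641 CPM of the 4 stressed keratinocyte genes, whereas the other 4 NS had between 5422 and 14980 CPM. The part of the keratinocyte state, and of the unlabelled irradiation of some NS, in these relations was not tested.

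**Figure D4:**
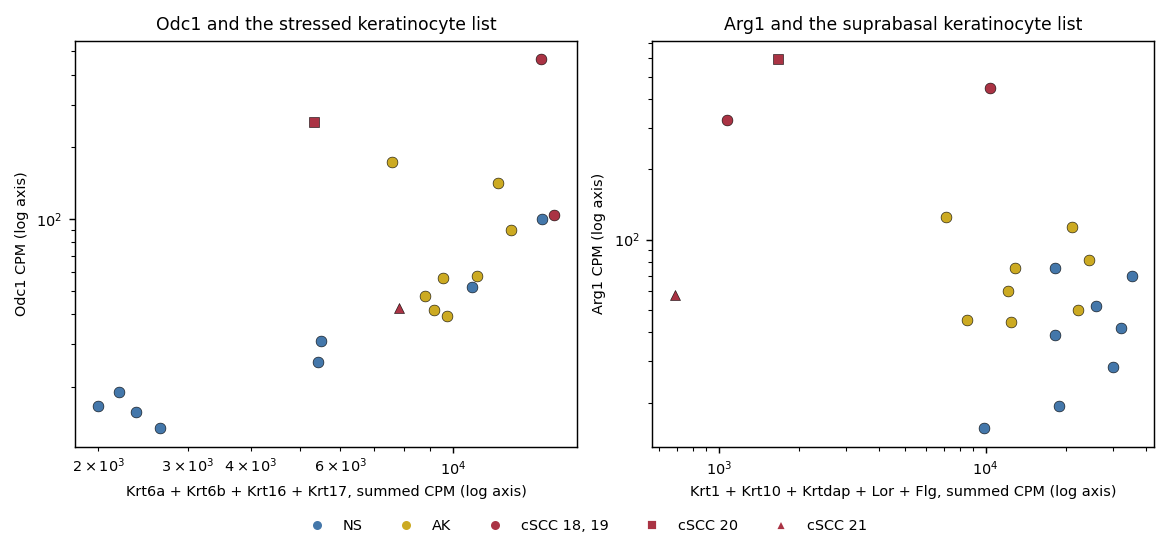
Odc1 against the summed level of Krt6a, Krt6b, Krt16 and Krt17 and Arg1 against that of Krt1, Krt10, Krtdap, Lor and Flg, in CPM on log axes, each point a tissue. The 4 NS with the lowest Odc1 had at most 2641 CPM of the first list, and 3 of the 4 carcinomas had at most 1669 CPM of the second.

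Marker lists of the cell types that skin can hold are given as sums over all genes of each list. The 4 stressed keratinocyte genes ranged from 1996 to 14980 CPM in NS (median 4032), from 7584 to 13020 CPM in AK (median 9630) and from 5316 to 15840 CPM in cSCC (median 11350). The 5 suprabasal genes were at 9850 to 35220 CPM in NS and 7082 to 24500 CPM in AK, and at 10410, 1074, 1669 and 686.7 CPM in carcinomas 18 to 21. Thus 3 carcinomas lay below every NS and AK in that list. The 7 neutrophil markers ran from 13.23 to 806.4 CPM in NS (median 34.36), 47.67 to 295.5 in AK (median 169.5) and 196.6 to 691.8 in cSCC (median 449.7). The 5 endothelial markers ran from 23.1 to 88.51 CPM in NS and from 28.89 to 79.11 CPM in AK. They were at 88.91, 91.84, 149 and 501.3 CPM in carcinomas 18 to 21, above every NS and AK. That cSCC 18 exceeded the highest NS depends on its TMM factor of 0.5086. The highest sums were in cSCC 20 and cSCC 21, which held 35810 CPM of lung epithelium and 39800 CPM of heart muscle genes respectively. The part of such tissue in these endothelial sums was not tested. The 5 T cell markers ran from 45.06 to 189.6 CPM in NS, 24.57 to 129.5 in AK and 3.473 to 28.44 in cSCC. The 5 sebaceous gland markers ran from 399.8 to 2876 CPM in NS and 460.4 to 1246 in AK, and were at 96.55, 72.06, 1269 and 14.55 CPM in carcinomas 18 to 21, and 2 of these genes were at 0 in all 4 carcinomas. The T cell sums of the carcinomas were thus below every NS but overlapped AK, and 3 of the 4 sebaceous sums were below every NS and AK. The 6 fibroblast markers overlapped (1021 to 7692 CPM in NS, 1124 to 4607 in AK and 1265 to 5448 in cSCC), as did the 5 adipocyte markers (198 to 2186, 285.9 to 1600 and 150.7 to 2139 CPM) and the 6 skeletal muscle markers (543.7 to 7536, 24.91 to 4923 and 501.8 to 8325 CPM). The 7 proliferation markers overlapped, with 280.4 to 875.6 CPM in NS, 410.8 to 910.3 in AK and 155 to 796.7 in cSCC. In each of the stressed, suprabasal, neutrophil, macrophage and proliferation lists, no gene was at 0 throughout a group. The part of these cell types in the levels of the 10 genes was not tested.

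Among the other 59 genes of the pathways, 40 passed the filter in AK vs. NS, 42 in cSCC vs. NS and 41 in cSCC vs. AK. In AK vs. NS, 2 rose and 0 fell by edgeR, 5.0% of those tested beside 4.64% of all genes, with 3 higher and 7 lower at an unadjusted p under 0.05, and DESeq2 and limma voom gave 2 and 3 lower DEGs. Atp13a3, a polyamine transporter of endosomes, averaged 41.03 ± 12.09 CPM in NS and 75.14 ± 18.23 in AK (SD, log2 fold change 0.85 ± 0.19 SE, edgeR adjusted p = 0.02). The arginine transporter Slc7a1 averaged 16.61 ± 5.539 CPM in NS and 29.66 ± 7.962 in AK (0.82 ± 0.22, edgeR adjusted p = 0.039), but it kept its call in 5 of 16 fits that left out a library. The values of NS and AK overlapped for both transporters.

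In cSCC vs. NS, 10 of these genes rose and 1 fell, and in cSCC vs. AK, 12 rose and 1 fell, which was 26.2% and 31.7% of those tested, beside 19.3% and 24.4% of all genes. Their median log2 fold changes were 0.64 and 0.70, and those of all genes were 0.14 and 0.17. Eif5a, whose protein carries hypusine made from spermidine, held 757.8 to 1665 CPM in the carcinomas and at most 646.6 CPM in NS and 534 CPM in AK. For cSCC 18 that separation depends on its TMM factor of 0.5086. Eif5a rose in cSCC vs. NS (log2 fold change 1.53 ± 0.32, edgeR adjusted p = 0.00703) and in cSCC vs. AK (1.88 ± 0.36, edgeR adjusted p = 0.0037), in every alternative tried, with 1.75 and 2.08 without cSCC 20 and cSCC 21. The hypusine hydroxylase gene Dohh rose as well (1.49 ± 0.46 and 2.48 ± 0.53, edgeR adjusted p = 0.037 and 0.00569), but with 84.19 CPM in cSCC 21 and 6.827 CPM in cSCC 20. The call in cSCC vs. NS was kept in 3 of 12 fits that left out a library, with a log2 difference of 0.77 without cSCC 21, and in 4 of 7 other alternatives. Of the alternatives tried in cSCC vs. AK it was lost under limma voom alone. The Dohh differences without cSCC 20 and cSCC 21 were 1.17 (edgeR adjusted p = 0.0645) and 2.12 (edgeR adjusted p = 0.012).
The second antizyme gene, Oaz2, held 35.42, 86.12, 70.54 and 317.7 CPM in carcinomas 18 to 21, against at most 40.56 CPM in NS and 27.48 CPM in AK. It rose in both comparisons (2.37 ± 0.47 and 2.98 ± 0.46, edgeR adjusted p = 0.00486 and 0.00218), and without cSCC 21 the differences were 1.35 and 1.82 and still passed. Without cSCC 20 and cSCC 21 together, the difference from NS was 1.26 and did not pass (edgeR adjusted p = 0.0603), while that from AK was 1.80 and passed (edgeR adjusted p = 0.00738).

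Ass1, argininosuccinate synthase, through which cells remake arginine from citrulline, was at 22.92, 70.74, 20.48 and 21.34 CPM in the carcinomas, above the highest NS of 14 CPM and the highest AK of 12.97 CPM. For cSCC 18 that separation depends on its TMM factor of 0.5086. Ass1 rose in cSCC vs. NS (log2 fold change 1.94 ± 0.43, edgeR adjusted p = 0.00814), without cSCC 19 to a degree that missed the threshold (1.29, edgeR adjusted p = 0.0531). It rose in cSCC vs. AK in every alternative (1.97 ± 0.37, edgeR adjusted p = 0.00361), by 1.33 without cSCC 19. The Ass1 differences without cSCC 20 and cSCC 21 were 2.39 and 2.42, and both passed. Slc3a2, the heavy chain shared by amino acid exchangers and linked to polyamine export, held 105.6 to 132.3 CPM in cSCC, with no overlap with NS (40.05 to 77.36 CPM) or AK (25.22 to 86.93 CPM). The lack of overlap depends on the TMM factor of 0.5086 of cSCC 18. Slc3a2 rose by 1.18 ± 0.23 from NS and 1.05 ± 0.30 from AK on the log2 scale (edgeR adjusted p = 0.00472 and 0.0202). The call in cSCC vs. AK was lost without cSCC 21 (edgeR adjusted p = 0.054) and in 4 of 7 other alternatives, among them the fit without cSCC 20 and cSCC 21 (1.04, edgeR adjusted p = 0.0732), where the difference from NS passed (edgeR adjusted p = 0.0168). Its partner Slc7a6, a cationic amino acid exchanger, was the gene that fell, from 61.8 ± 25.16 CPM in NS and 42.15 ± 7.598 in AK to 22.11 ± 6.67 in cSCC (SD). Its log2 fold changes were -1.42 ± 0.36 and -0.80 ± 0.27 (edgeR adjusted p = 0.015 and 0.0423), and no carcinoma overlapped NS or AK. The second of these calls was kept in 5 of 12 fits that left out a library, and without cSCC 20 and cSCC 21 the fold changes were -1.84 and -1.25 and both passed.

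Of the 5 genes that salvage methylthioadenosine, the by-product of spermidine and spermine synthesis, 3 rose in each carcinoma comparison. Apip and Adi1 rose in both, Mtap in cSCC vs. NS and Mri1 in cSCC vs. AK. Apip rested on cSCC 21, with 151.2 CPM there and 16.26 to 41.68 CPM in the other carcinomas, and its difference from NS without that library was 0.40 in place of 1.56. Adi1 also lost its calls without cSCC 21. Mtap was lost without cSCC 18, by library size alone and under limma voom, and Mri1 kept its call in 3 of 12 fits that left out a library and in 3 of 7 other alternatives. Of these DEGs, Mtap alone passed without cSCC 20 and cSCC 21, with a difference of 1.40 from NS, while Apip was at 0.48 and 0.52, Adi1 at 0.64 and 0.51 and Mri1, against AK, at 1.06. Ddah2, which breaks down methylated arginines that block nitric oxide synthases, rose in both (1.40 ± 0.39 and 2.19 ± 0.46, edgeR adjusted p = 0.0228 and 0.00567), and Ddah1 and Nos3 rose in cSCC vs. AK. Nos3, the endothelial nitric oxide synthase, held 6.251, 1.318, 4.551 and 10.59 CPM in carcinomas 18 to 21, and kept its call in 2 of 11 fits that left out a library and in 3 of 7 other alternatives. The part of the endothelial markers, which were highest in cSCC 21 as Nos3 was, in this value was not tested. Ddah1 kept its call in 4 of 12 and 4 of 7. When cSCC 20 and cSCC 21 were left out, Nos3 (1.07), Ddah1 (1.08) and Ddah2 (0.46 from NS and 1.22 from AK) did not pass. Ddah2 was highest in cSCC 20 at 58.03 CPM, and without that library its difference from NS was 0.82 and did not pass (edgeR adjusted p = 0.118). None of the tested genes of S-adenosylmethionine supply (3), of creatine synthesis (2 or 3) and of the Myc network (4), and not the 1 tested further gene of polyamine breakdown, passed in any pairwise edgeR comparison with all libraries. At an unadjusted p under 0.05 edgeR gave 1 of these genes in AK vs. NS, 3 in cSCC vs. NS and 2 in cSCC vs. AK, and among them DESeq2 called Mat2a and Ahcy higher in cSCC vs. NS and Max higher in cSCC vs. AK, while limma voom and the edgeR fit of all 20 tissues called Slc6a8 lower in cSCC vs. NS. Both Ahcy (1.17) and Slc6a8 (-1.22) also passed there by edgeR without cSCC 21. These 4 genes were named after their values were seen.

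**Figure D5:**
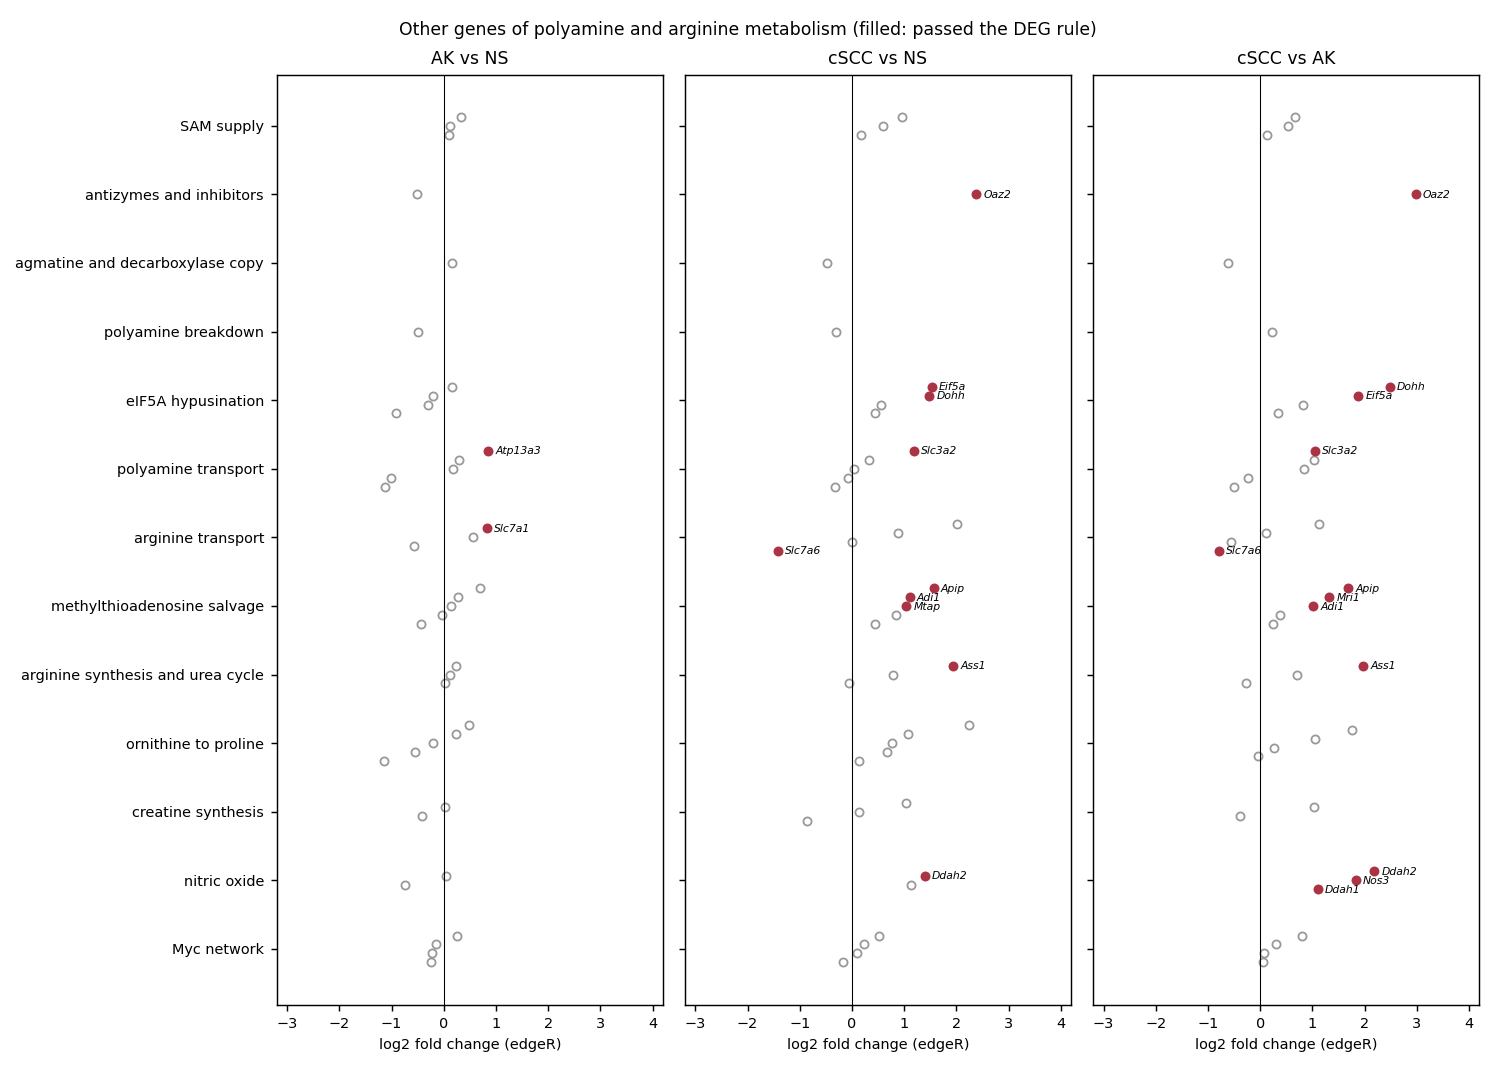
Log2 fold change of the other pathway genes tested, by list, in each of the 3 comparisons. Filled, named points are the genes described in the text that passed the DEG rule, 2 in AK vs. NS, 10 in cSCC vs. NS and 12 in cSCC vs. AK, of which only Slc7a6 lies below 0.

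The genes most like Odc1 and Arg1 were sought by Pearson's r of log2(CPM + 1) over the 20 tissues among 12847 genes, as a description, since the tissues share group, depth and cell makeup. For Odc1 they were Tes (r = 0.919), the cytokine gene Il24 (r = 0.91) and the calpain gene Capn2 (r = 0.902). Tes averaged 43.27 CPM in NS, 81.7 in AK and 170.3 in cSCC. For Arg1 they were the prolactin family gene Prl8a9 (r = 0.876), the keratin gene Krt19 (r = 0.875) and the cytokine gene Il1b (r = 0.874). Il1b averaged 22.42 ± 9.881 CPM in NS, 52.96 ± 50.01 in AK and 812.2 ± 596.8 in cSCC (SD), and Prl8a9 was nearly absent from NS at 0.5165 CPM.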

How the data were processed

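RNA-seq was performed on 20 skin tissues, and groups were taken from the sample labels. The authors deposited raw counts per gene symbol without normalization. By the paper's methods the reads were trimmed, aligned with HISAT2 to GRCm38 and quantified with StringTie, while the submitters' processing notes name Trimmomatic 0.36, HISAT2 2.0.5, featureCounts 1.5.2 and other genome builds. Whether counting used strand, and how reads shared by near-identical genes such as Amd1 and Amd2 were assigned, is not given in the sources used here. The labels and the methods also differ in the sequencing instrument and in the days of irradiation per week. No batch or date is given in the labels.

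CPM were obtained from these counts with TMM factors estimated over all 20 tissues. Each pair of groups was fitted with edgeR 4.0.16 (R 4.3.3, quasi-likelihood test, TMM) on genes that passed filterByExpr, and p-values were adjusted over all of them by the Benjamini-Hochberg procedure. The study's fold limits of 1.5 and 0.67 were kept, and its unadjusted test per gene was replaced by the count test. Ratios used CPM with a pseudocount of 1 and exact permutation tests in scipy 1.17.1. No pair of tissues within a group was a repeated library, since over 62 pairs the chi-square per degree of freedom was at least 11.3. Gene models were GENCODE M21, and upstream sequences were from RefSeq. Alternatives were DESeq2 1.42.0, its size factors in edgeR, limma 3.58.1 voom with quality weights, library size alone, no filter, 1 fit of all tissues, a pseudocount of 0.1, and leaving out libraries. The fits were tested on simulated counts in which some genes were given a log2 fold change of 2. Of these genes, 94.2% were recovered in AK vs. NS, 40.2% in cSCC vs. NS and 53.8% in cSCC vs. AK. A gene that did not pass in a carcinoma comparison can therefore still differ. Smaller changes, such as the 1.23 of Odc1 in AK vs. NS, were not simulated. A gene that did not pass in AK vs. NS can thus still differ too. The 10 genes, the pathway lists, the marker lists and the tests were chosen with earlier results of these data known. Genes named were all 10 members, the pathway DEGs (at most the 15 with the largest change in each comparison), the 3 genes most like Odc1 and Arg1, and genes of marker lists. All 15 marker lists are reported. Amd2 is described as the copy of Amd1. Irradiation of single NS, the grade of AK and pairing by mouse were not analysed here, nor were other parts of the study. Where nothing says that tissues of a group came from separate mice, p-values measure only the spread between these samples. A result for 1 pathway gene, which is included in the counts, is not reported here.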

Additional observations from a re-analysis of the deposited data

Results flagged for a closer look

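Over the 10 genes in 3 groups, the highest and the lowest sample of each of the 30 groups of values were checked with Dixon's criterion on log2(CPM + 1), which by chance marks about 1 in 20 groups. A single value stood out. Sat1 in library cSCC 21, at 317 CPM, was far below the nearest carcinoma, cSCC 18 at 1627 CPM. The same value stood out with a pseudocount of 0.1. The same library held 39800 CPM of heart muscle markers and 686.7 CPM of suprabasal keratinocyte markers, and their part in this value was not tested.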

How the results depend on the processing

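No paired analysis was possible because the labels number the tissues through the whole series, so that the groups share no replicate number. The 10 genes gave 1 DEG in AK vs. NS, with 2 under DESeq2, 2 under limma voom, 0 in the edgeR fit of all 20 tissues (3 at an unadjusted p under 0.05) and 0 to 2 when a library was left out. They gave 5 DEGs in cSCC vs. AK and 3 to 5 when a library was left out, while the 4 in cSCC vs. NS were 4 to 5. The other pathway genes gave 2 DEGs in AK vs. NS, with 4 under DESeq2, 6 under limma voom, 1 without a filter, 0 in the edgeR fit of all 20 tissues (7 at an unadjusted p under 0.05, 3 of them higher) and 1 to 3 when a library was left out. They gave 11 in cSCC vs. NS, with 5 by library size alone and 6 under limma voom, and 13 in cSCC vs. AK, with 8, 6 and, without cSCC 20 and cSCC 21, 7, and 8 to 14 when a library was left out (8 without cSCC 21). Over all genes, AK vs. NS gave 542 DEGs, with 1049 under DESeq2, 1043 under limma voom, 9 in the fit of all tissues and from 164 (without NS 4) to 920 (without NS 8). The other comparisons gave 2340 and 2935, with 1308 and 1270 under limma voom and 1751 and 1787 without cSCC 21. Library size alone changed the higher and lower DEGs from 264 and 278 to 176 and 481, from 1414 and 926 to 625 and 1332, and from 1931 and 1004 to 1021 and 1356, and the medians of all genes to -0.13, -0.17 and -0.09. The cause of these shifts was not tested.

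Of the alternatives for single genes, 534 kept direction and side of the threshold, 25 lost a call, 9 gained a call and 32 changed sign. All sign changes concerned differences that did not pass. In AK vs. NS, Oaz1 was 0.025 (limma voom), 0.00080 (no filter) and 0.015 (all tissues), from -0.13 to 0.11 when a library was left out, and Sms was -0.043 by library size alone and from -0.056 to 0.26. In cSCC vs. NS, Sms was -0.22 without cSCC 20 and cSCC 21 and Srm ran from -0.017 to 0.47. In cSCC vs. AK, Azin1 was -0.13 (library size), -0.15 (no filter), -0.087 (all tissues) and -0.051 (without cSCC 20 and cSCC 21), from -0.13 to 0.15. Srm was -0.0073 by library size, from -0.080 to 0.32, Sms was -0.26 without cSCC 20 and cSCC 21, and Sat1 was 0.23 under limma voom and 0.26 without those libraries, from -0.24 to 0.22.

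No ratio passed after adjustment with all libraries. Leaving out a library gave, in AK vs. NS, 1.16 to 1.55 for Odc1 to Oaz1 (passing without NS 7 or NS 8), 0.32 to 0.67 for Odc1 to Sat1 (passing without NS 8) and -0.28 to 0.12 for Sms to Srm. It gave, in cSCC vs. NS, 1.69 to 2.32 for Odc1 to Sat1 (passing without NS 7 or NS 8) and -0.34 to 0.81 for Sms to Srm. It gave, in cSCC vs. AK, -0.53 to 0.27 for Arg1 to Arg2, -0.95 to 0.31 for Odc1 to Oaz1 and -0.29 to 0.86 for Sms to Srm. Without cSCC 20 and cSCC 21, Sms to Srm was -0.84 against NS and -0.79 against AK, and Arg1 to Arg2 and Odc1 to Oaz1 were 0.23 and 0.26 against AK.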
